A study of Mus musculus with 4 samples.

Results

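Natural killer (NK) cells were sought among single-cell RNA profiles of hypoxic mouse lungs and made up 96 of 44835 kept barcodes. NK cells are innate lymphocytes that kill infected or transformed cells with perforin and granzymes, without rearranged antigen receptors. Activating receptors such as NKp46 and NKG2D and inhibitory receptors such as many of the Ly49 family are known to balance their response. The lung holds many NK cells that recirculate through its capillaries. The cells were selected on their own UMI counts (unique molecular identifiers, which count captured RNA molecules): an NK cell was chosen by UMIs of at least 2 of the 5 genes Ncr1, Klrb1c, Gzma, Prf1 and Eomes. It also had to have 0 UMIs of the T cell genes Cd3d, Cd3e and Cd3g, the B cell gene Cd79a and the fibroblast gene Col1a2, and at most 1 UMI of the endothelial genes Cdh5 and Cldn5 together. To be kept, a barcode needed 1000 UMIs or more from 500 or more genes, with mitochondrial UMIs below 15%.

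The mice were Vegfr2Y949F, called mutant below, or WT, both on the C57BL/6J background. They were 6 to 8 weeks old and were exposed to hypoxia for 6 weeks, so all 4 libraries come from hypoxic lungs and normoxic lungs were not analysed here. As its name says, the allele puts phenylalanine in place of a tyrosine of VEGFR2, the main VEGF receptor of endothelial cells. That tyrosine is known to dock the adaptor TSAd. The labels name no promoter or Cre, so the allele is not stated to be limited to a cell type. There were 2 libraries per genotype, named A and B, each made from the pooled lung cells of 2 mice. What the letter stands for is not given in the labels. p-values between genotypes therefore measure the spread between 2 pools per genotype.

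The libraries held 12441 (A) and 10113 (B) kept barcodes of mutant lungs and 11721 (A) and 10560 (B) of WT lungs, with median UMI counts of 4536 to 5742. NK cells numbered 25 and 26 in the mutant libraries A and B, and 2 and 43 in the WT libraries A and B. Their summed UMIs were 76007 and 119443 in mutants and 5849 and 129619 in WT. In WT library A a single UMI is therefore worth 171 CPM (UMIs scaled to a sum of 1000000 within the cells of a type), against 7.71 to 13.2 CPM in the other libraries. The level that 3 counts give, used here as the floor, was 39.5 and 25.1 CPM in mutants and 513 and 23.1 CPM in WT, so WT library A says little about most genes. A value of 0 there allows any level below the floor.

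The rule accounted for each candidate. At least 2 of the 5 genes were read in 156 kept barcodes. In overlapping counts, 24 of these were left out for Cd3 UMIs, 1 for Cd79a, 13 for Col1a2 and 33 for more than 1 endothelial UMI. Of the 96 NK cells, 14 had exactly 2 of the 5 genes, 37 had 3, 32 had 4 and 13 had all 5. Just inside the threshold, the granule gene Nkg7 was read in 13 of the 14 cells with exactly 2 genes, and the myeloid gene Lyz2 in 1. Just outside it, among 67 barcodes that met every other condition with only 1 of the genes, Nkg7 was read in 4 and Lyz2 in 34, and Gzma was that gene in 46. NK cells had a median of 3045 UMIs (1023 to 16053) and 1412 detected genes. Libraries shared 43 to 70 barcodes per pair among all barcodes and 0 among NK cells.

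The 5 genes that chose the cells are given as a description only. Gzma (granzyme A, ENSMUSG00000023132, mm10 chromosome 13, 113093825 to 113100981) encodes a granule protease and was read in 93 of 96 cells. Its level was 8183 and 9402 CPM in the mutant libraries and 3248 and 10809 CPM in the WT libraries. Prf1 (ENSMUSG00000037202, chromosome 10, 61297833 to 61304680) encodes perforin, the pore-forming protein, and was read in 85 cells. Klrb1c (ENSMUSG00000030325, chromosome 6, 128778485 to 128789215) encodes NK1.1, the antigen by which NK cells of C57BL/6 mice are recognised, and was read in 73 cells. Eomes (ENSMUSG00000032446, chromosome 9, 118478212 to 118486132), a T-box transcription factor of conventional NK cells, was read in 48 cells. Ncr1 (ENSMUSG00000062524, chromosome 7, 4337724 to 4345164), which encodes the activating receptor NKp46, was read in 33. Both cells of WT library A had Klrb1c, Gzma and Prf1 UMIs and 0 of Ncr1 and Eomes. Endothelial barcodes (at least 5 UMIs of Cdh5 and Cldn5 and 0 of Ptprc) served as a gauge of free RNA. They can do so only for genes that endothelial cells do not express, since they also hold their own RNA. In them the share with a UMI was 0.594% for Gzma, the highest of the 5. Those barcodes had 4772.5 to 6096.5 median UMIs per library, more than the NK cells.

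T-box factors and RUNX factors are known regulators of NK genes, so the starts of the NK genes were searched for their core motifs. The window ran from 250 bases before to 50 bases after each RefSeq start (GRCm38.p6). The T-box core GGTGTGA, or TCACACC on the other strand, was present in 1307 of all 32851 promoters (3.98%), and the RUNX core TGTGGTT, or AACCACA on the other strand, in 1731 (5.27%). The motifs do not overlap in the promoters shown. Of the 25 NK genes searched (the 5 of the rule and the 20 listed further below), 18 had a promoter in the table, 24 promoters in all. The T-box core was in 2 of these 24 promoters and the RUNX core in 7, where 2 overlapping promoters of Ncr1 share the same match. The 4 promoters below are shown as examples that hold a core, in capitals: Ncr1 and Gzma are genes of the rule, and Nkg7 and Xcl1 are among the 20. Klre1, Klrk1 and Gm19585 also hold a RUNX core and are not shown. A RUNX core begins 176 bases before the start of Ncr1 and 51 bases before that of Gzma. A T-box core begins 13 bases before the start of Nkg7. Xcl1, the gene of a chemokine that attracts dendritic cells, holds both, 228 (RUNX) and 188 (T-box) bases before its start. A match describes letters only and is no evidence of binding.
Ncr1 (chr7:4337465-4337764, plus strand): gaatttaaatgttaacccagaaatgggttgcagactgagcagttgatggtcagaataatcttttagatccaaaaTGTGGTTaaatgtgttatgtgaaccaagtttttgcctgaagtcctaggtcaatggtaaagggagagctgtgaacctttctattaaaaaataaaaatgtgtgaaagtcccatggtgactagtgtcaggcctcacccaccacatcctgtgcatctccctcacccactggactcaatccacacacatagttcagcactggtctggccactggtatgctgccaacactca
Gzma (chr13:113100932-113101231, minus strand): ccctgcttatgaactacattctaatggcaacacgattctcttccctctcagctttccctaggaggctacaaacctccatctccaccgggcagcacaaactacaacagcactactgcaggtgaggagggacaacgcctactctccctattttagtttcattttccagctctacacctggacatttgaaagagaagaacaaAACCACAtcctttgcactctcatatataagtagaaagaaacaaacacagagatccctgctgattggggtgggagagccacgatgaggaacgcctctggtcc
Nkg7 (chr7:43436888-43437187, plus strand): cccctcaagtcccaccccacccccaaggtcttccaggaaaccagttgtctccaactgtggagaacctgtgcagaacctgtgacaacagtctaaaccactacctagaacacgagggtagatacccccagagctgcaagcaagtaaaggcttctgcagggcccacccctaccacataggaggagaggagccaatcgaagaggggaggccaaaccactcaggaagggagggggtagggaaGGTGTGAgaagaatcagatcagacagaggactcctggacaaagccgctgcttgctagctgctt
Xcl1 (chr1:164935473-164935772, minus strand): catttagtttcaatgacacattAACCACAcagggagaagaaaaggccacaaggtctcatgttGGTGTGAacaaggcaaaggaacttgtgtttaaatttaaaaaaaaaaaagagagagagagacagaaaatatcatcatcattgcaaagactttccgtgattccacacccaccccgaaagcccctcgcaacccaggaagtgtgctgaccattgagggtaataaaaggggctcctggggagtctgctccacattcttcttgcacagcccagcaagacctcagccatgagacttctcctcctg

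The share of NK cells among kept barcodes did not separate the genotypes. It was 0.201% (95% Wilson interval 0.136 to 0.296) in mutant A and 0.257% (0.176 to 0.376) in mutant B, against 0.0171% (0.00468 to 0.0622) in WT A and 0.407% (0.302 to 0.548) in WT B. The 2 WT libraries enclosed both mutant libraries. The means were 0.229 ± 0.0397% in mutants and 0.212 ± 0.276% in WT (SD, n = 2 each), a difference of 0.0169 percentage points (exact permutation test, two-sided, p = 1; with 2 libraries on each side no p below 0.333 is possible). Within set A the difference was 0.184 points and within set B -0.150 points. Without WT A the difference was -0.178 points, without WT B 0.212 points and without mutant B -0.011 points, so its direction depended on which libraries were kept. Among barcodes with a UMI of the leukocyte gene Ptprc, the NK share was 0.778% and 1.53% in mutants and 0.211% and 1.96% in WT. These intervals cover counting error only, and shares of barcodes cannot tell fewer NK cells from more cells of other types or from losses in dissociation.

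T and B cells were also few in WT A, while ILC2 (group 2 innate lymphoid cells) were not fewest there. T cells made up 2.11% and 4.44% of mutant barcodes and 0.589% and 6.24% of WT barcodes. B cells made up 0.402% and 0.643% in mutants and 0.0768% and 1.52% in WT. ILC2 numbered 9 and 19 in mutants and 19 and 32 in WT. Endothelial barcodes made up 52.8% and 54.4% in mutants and 69.0% and 54.8% in WT, the highest share in WT A. NK cells per 100 T cells were 9.54 and 5.79 in mutants and 2.90 and 6.53 in WT. What set these shares in WT A was not tested.

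**Figure D1:**
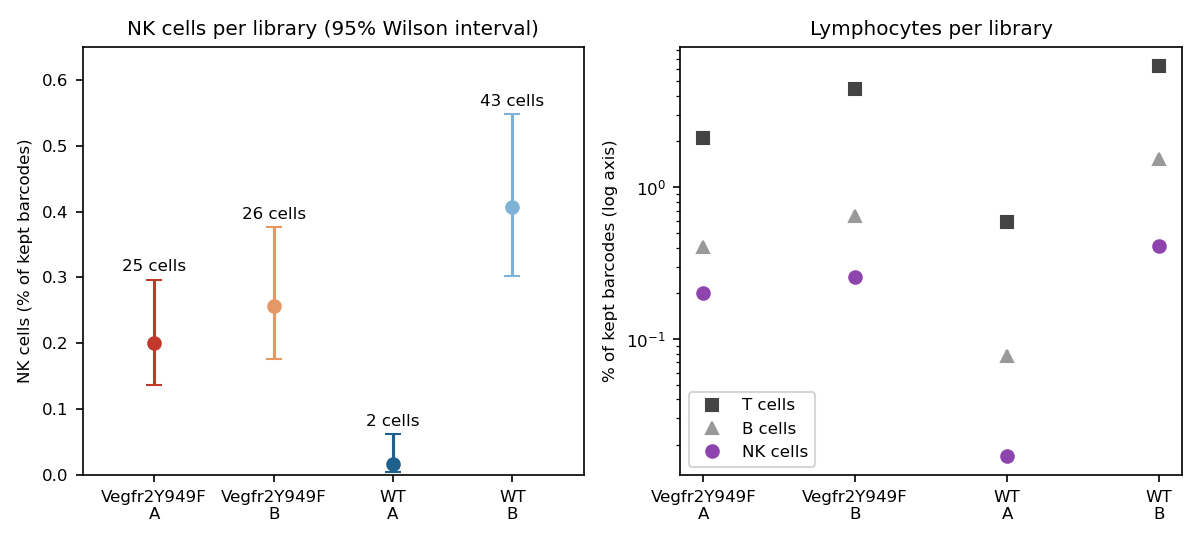
Left, NK cells as a percentage of kept barcodes in each library, with 95% Wilson intervals and the number of NK cells. Right, T cells, B cells and NK cells as percentages of kept barcodes on a log axis; WT A has the lowest share of all 3 types and WT B the highest.

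A few of the barcodes also carried the RNA of another cell type. Across 10 marker lists of other lineages (all but T cells and ILC2), 7 of the 96 NK cells had at least 20 UMIs of 1 list, and in the other cells the highest value was 17. This threshold was chosen after the values were seen. The 7 were 2 in mutant A, 2 in mutant B, 0 in WT A and 3 in WT B, and they held 12420 of 76007 NK UMIs in mutant A, 27597 of 119443 in mutant B, 0 in WT A and 23338 of 129619 in WT B. In mutant A a barcode of 6503 UMIs had 249 UMIs of neutrophil markers, and another of 5917 UMIs had 91 of fibroblast and mural markers. In mutant B barcodes of 16053 and 11544 UMIs had 72 and 156 UMIs of monocyte and macrophage markers. In WT B the mixed barcodes had 277 and 31 UMIs of neutrophil markers and 666 UMIs of dendritic cell markers. Of these 7 barcodes 3 were in the highest 8% of doublet scores. Epithelial markers were read in 93 of the 96 cells, at 1724 and 753 CPM in mutants and 1197 and 1990 CPM in WT, against 3801 CPM in endothelial barcodes. Neutrophil markers summed to 3513 and 142 CPM in mutants and 0 and 2615 CPM in WT, and dendritic cell markers to 276 and 1164 CPM in mutants and 171 and 5416 CPM in WT. Several results below are given with and without the mixed barcodes.

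**Figure D2:**
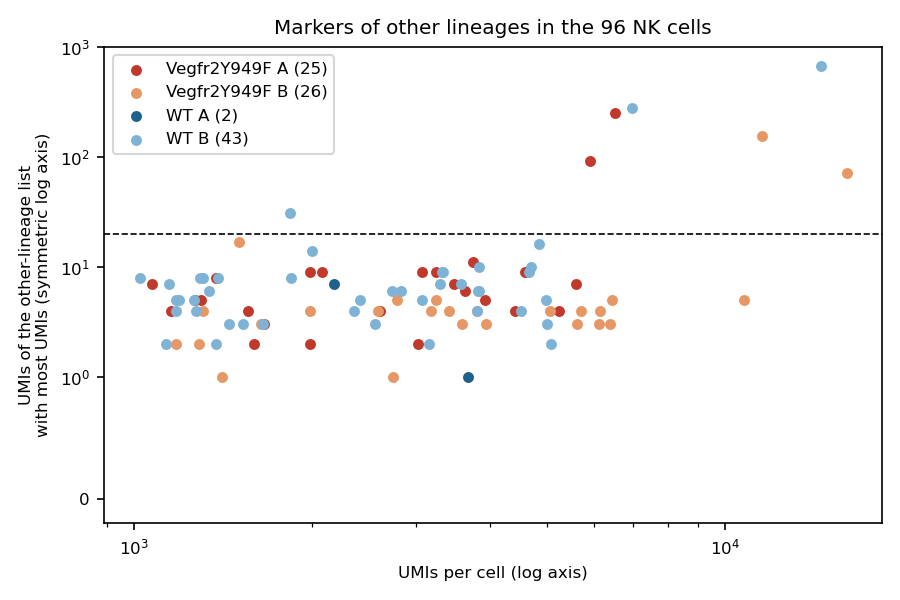
Each point is an NK cell, with its UMIs (log axis) against the UMIs of whichever other-lineage marker list had most in that cell (symmetric log axis); the dashed line marks 20 UMIs. The 7 points above the line are the mixed barcodes, from mutant A, mutant B and WT B.

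The label was checked against genes that the rule did not use. Ccl5, the gene of a chemokine stored by cytotoxic lymphocytes, was read in all 96 cells, with 13367 and 21743 CPM in mutants and 9574 and 16602 CPM in WT. Its share of endothelial barcodes with a UMI was 2.08%. Nkg7, a component of cytotoxic granules, was read in 91 cells and Il2rb, the receptor chain shared by interleukin-2 and interleukin-15, in 94. The activating receptor gene Klrk1 (NKG2D) was read in 64 cells and Klra8 (Ly49H), which recognises a cytomegalovirus protein, in 58. T cell genes were in part unread. Of 14 T cell genes 7 had 0 UMIs in the 96 cells, among them the coreceptor genes Cd4, Cd8a and Cd8b1. Trac, the T cell receptor alpha constant gene, was read in 5 cells, and the delta constant gene Trdc in 16. A T cell receptor constant gene of any kind was read in 74 of 96 cells. The beta constant gene Trbc1 was read in 63 cells (65.6%), against 60.9% of CD8 T cells and 0.436% of endothelial barcodes. The 14 T cell genes together had 737 and 938 CPM in mutants and 342 and 856 CPM in WT, against 3207 CPM in CD8 T cells over all libraries. That list holds Cd8a and Cd8b1, which chose the CD8 T cells, so part of this gap was fixed by their rule.

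By a rule of size with no test, the 20 genes with the highest ratio of CPM in NK cells to CPM in all other kept barcodes were taken, among those with at least 100 CPM and a higher level in each of the 4 libraries. Lectin-like receptor genes were Klra4, Klra8, Klri2, Klrc2, Klre1, Klrk1, Klrg1 and Klrb1b. Xcl1 and Ccl5 encode chemokines. Nkg7, Ctsw and Fasl belong to the killing machinery, and Serpinb9b encodes a serpin. Il2rb, Il12rb2 and Tnfrsf9 encode cytokine or costimulatory receptors. Cd7, the long noncoding Gm19585 and Sh2d2a completed the 20. Klra4 stood at 825 CPM in NK cells and 0.335 CPM in the other barcodes. Il2rb stood at 1828 and 5.68 CPM and Ctsw at 511 and 1.66 CPM in the same order. These ratios follow from how the cells were chosen and are a description.

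Sh2d2a encodes TSAd, the adaptor that binds the tyrosine changed in the mutants, and was also a gene of NK cells. It was read in 75 of 96 NK cells (78.1%), in 45.5% of CD8 T cells, in 21.5% of ILC2 and in 0.197% of endothelial barcodes. Its level in NK cells was 645 and 753 CPM in mutants and 684 and 609 CPM in WT, against 0.255 CPM in endothelial barcodes over all libraries. The mutant and WT levels overlapped, and edgeR gave a log2 fold change of 0.33 with an SE of 0.48 and an adjusted p of 1.00. Kdr, the gene of VEGFR2 itself, had 1 UMI in all 96 NK cells, and the related receptor gene Flt1 had 6. The ligand gene Vegfa was read in 28 NK cells, with 158 and 159 CPM in mutants and 513 (3 UMIs) and 116 CPM in WT.

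NK cells leave the bone marrow immature and mature through stages marked by CD27 and CD11b (gene Itgam), and tissue-resident type 1 innate lymphoid cells (ILC1) resemble them. Most NK cells with a UMI of either gene had the mature marker. Itgam UMIs without Cd27 were read in 39 cells, both in 9, Cd27 without Itgam in 8 and neither in 40. A cell with neither may hold RNA that was not captured. The mixed barcodes are included in these counts, which were not made without them. After each cell was thinned to 1000 UMIs, Itgam was read in 22 of 96 cells and Cd27 in 10, against 48 and 17 unthinned. The share with a UMI in endothelial barcodes was 0.894% for Itgam and 6.23% for Cd27. By library, cells with Itgam and no Cd27 numbered 12 of 25 and 10 of 26 in mutants and 0 of 2 and 17 of 43 in WT. Of the 2 cells of WT A, 1 had Cd27 and no Itgam and the other had neither.

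Markers of the last stages were read in fewer cells. Klrg1, an inhibitory receptor of terminally mature cells, was read in 26 cells, the sphingosine receptor gene S1pr5, needed for exit from marrow and lymph nodes, in 15, and the fractalkine receptor gene Cx3cr1 in 14. Cma1, which encodes mast cell chymase, was read in 55 cells with 750 and 318 CPM in mutants and 0 and 656 CPM in WT. Of 10 basophil and mast cell markers 8 had 0 UMIs in the NK cells, Cpa3 and Mcpt4 among them. At least 1 gene of the ILC1 and residency list was read in 79 cells. Itga1 was read in 3 cells and Cxcr6 in 2, and 4 cells had either. The interleukin-7 receptor gene Il7r was read in 3 cells. Of the 16 genes of the ILC1 and residency list, 6 had 0 UMIs, among them Tnfsf10 (TRAIL) and Zfp683 (Hobit). Itga1 stood at 962 CPM in endothelial barcodes, where 93.7% had a UMI of it. Mki67 or Top2a, genes of dividing cells, were read in 6 cells.

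**Figure D3:**
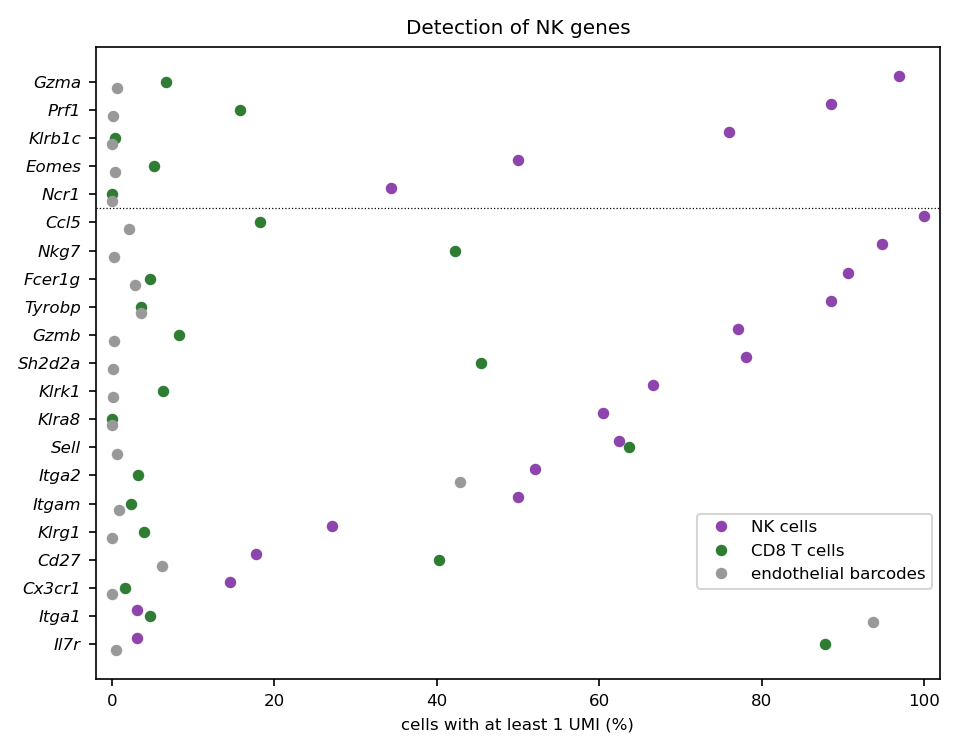
Percentage of NK cells, CD8 T cells and endothelial barcodes with at least 1 UMI of each gene; the 5 genes above the dotted line chose the NK cells. Ccl5, Nkg7, Fcer1g and Tyrobp are read in most NK cells, Itga2 is also read in endothelial barcodes, and Il7r is read in 87.7% of CD8 T cells.

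NK cells were next compared with CD8 T cells of the same suspensions, another lymphocyte that kills with granules. CD8 T cells had at least 1 UMI of Cd3d, Cd3e or Cd3g and of Cd8a or Cd8b1, with 0 of Cd4, Cd79a and Col1a2 and at most 1 endothelial UMI. They numbered 14 and 89 in mutants and 12 and 138 in WT. WT A was left out of this fit since it held under 10 NK cells, so the test rests on 3 libraries, each with both cell types. Genes used by either cell rule were not tested, but genes that go with those markers were bound to differ, so the calls describe the 2 cell types as chosen. The filter on low counts could be passed through 1 cell type alone. A gene nearly absent from the other type could hardly be called in the opposite direction, and the list counts below include such genes. Of 1906 genes, edgeR called 237 higher in NK cells (12.4%) and 219 lower (11.5%) at an adjusted p under 0.05, with the library as a block. Median UMIs per cell were 2555 to 3497 in NK cells and 6171.5 to 6851 in CD8 T cells of these libraries. Without WT B, which held most of the CD8 T cells, 37 genes were called higher and 19 lower, all 56 of them among the 456. Only the genes named for the largest folds were followed singly there, so other calls described below may not have held. Without mutant A 5686 genes were tested, with 450 called higher and 278 lower, and 337 of the 456 were still called. DESeq2 on the 3 libraries called 172 of 1906 higher and 176 lower, with 345 of the 456 still called.

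Receptors led the genes that rose. The Ly49 receptors are a family of lectin-like molecules, many of which read MHC class I, while Klra8 recognises a cytomegalovirus protein. Klra4 had 579, 795 and 980 CPM in NK cells of mutant A, mutant B and WT B, against 0 UMIs in CD8 T cells of the same libraries. Against the floor of 3 counts over the summed CD8 T cells (1.64 CPM), it was at least 498-fold higher in NK cells. By the same measure Klra8 was at least 334-fold higher, Klra9 at least 266-fold, Klra7 at least 163-fold and Klrb1b, an inhibitory receptor of the NKR-P1 family, at least 137-fold. The 4 Ly49 genes tested had 0 UMIs in CD8 T cells and passed the filter on low counts through NK cells alone, so that they were called higher adds nothing. Klri2, another lectin-like receptor gene, had 221 CPM in the summed NK cells and 0.547 CPM in CD8 T cells (1 UMI, ratio 405, exact 95% counting interval 70.4 to 16206). Of the 18 genes of the inhibitory and CD94 list 5 were tested and called higher, among them Klre1 (log2 fold change 5.22, SE 0.50) and Klrd1, the CD94 chain (1.12, SE 0.24). Of the activating and adhesion list 8 of 10 rose, among them Klrk1 (4.49, SE 0.38) and Itga2, the DX5 antigen CD49b (5.26, SE 0.44). Klrb1b, Klri2, Klrc2, Klre1, Klrk1 and Itga2 also passed the filter on low counts through NK cells alone. Their levels are therefore a description, and their part in these counts adds nothing.

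The Ly49 genes resemble each other so closely that a read may be given to the wrong member, so the value of a single member is uncertain. The transcripts that give the reads were not compared here. The promoters of Klra4 and Klra8 are shown only as an example of likeness in this family. Both lie within the Ly49 cluster on chromosome 6, on the minus strand, and 259 of 301 aligned positions were identical (86.0%). Neither T-box nor RUNX core was found in them, so the lines hold no capitals.
Klra4 (chr6:130067222-130067521, minus strand): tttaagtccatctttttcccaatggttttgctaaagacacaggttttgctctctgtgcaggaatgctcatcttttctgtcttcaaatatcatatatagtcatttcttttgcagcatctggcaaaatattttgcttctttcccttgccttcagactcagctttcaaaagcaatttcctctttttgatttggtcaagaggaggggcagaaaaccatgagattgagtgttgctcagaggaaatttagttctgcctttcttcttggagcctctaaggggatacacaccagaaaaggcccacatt
Klra8 (chr6:130129849-130130148, minus strand): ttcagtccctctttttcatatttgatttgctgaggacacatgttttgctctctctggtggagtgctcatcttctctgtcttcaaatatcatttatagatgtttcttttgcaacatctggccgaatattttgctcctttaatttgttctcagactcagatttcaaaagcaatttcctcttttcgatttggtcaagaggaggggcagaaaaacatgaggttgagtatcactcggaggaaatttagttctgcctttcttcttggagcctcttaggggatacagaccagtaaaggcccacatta

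Some signalling adaptors were higher in NK cells. Of the 11 adaptors and kinases tested 4 rose and 2 fell. Fcer1g, the gamma chain that signals for NKp46 and CD16, had 1960, 2210 and 2422 CPM in NK cells of mutant A, mutant B and WT B, against 157, 4.68 and 33.9 CPM in CD8 T cells of the same libraries (edgeR log2 fold change 5.76, SE 0.80, adjusted p = 0.00144). Tyrobp, which encodes the adaptor DAP12, had 1710, 2411 and 2145 CPM against 292, 2.34 and 70.1 CPM (4.86, SE 1.03). NK and CD8 T cells did not overlap in either gene, but the share of all tested genes without overlap was not counted. Without the 7 mixed barcodes the summed NK level over all libraries was 2328 CPM for Fcer1g and 2149 CPM for Tyrobp, and with them 2236 and 2152 CPM. CD8 T cells were not screened for mixed barcodes. Those of mutant A also had 2607 CPM of the neutrophil gene S100a8 and 2730 CPM of S100a9. The values were 3.51 and 5.85 CPM in mutant B and 119 and 193 CPM in WT B. The part that RNA of other cells played in the CD8 T cell levels was not tested. Sh2d2a rose as well, with 645, 753 and 609 CPM in NK cells against 157, 211 and 124 CPM in CD8 T cells (1.77, SE 0.23). Cd247, the zeta chain that T cell receptors share with CD16, was among those that fell (-1.23, SE 0.39). Hcst, the DAP10 adaptor of NKG2D, was not called (0.46, edgeR adjusted p = 0.333).

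Of 12 cytotoxic granule genes tested 9 rose and 0 fell, with a median log2 fold change of 2.66, against 0.0023 over all 1906 genes. Nkg7 had 2684, 3031 and 2947 CPM in NK cells of mutant A, mutant B and WT B, against 78.6, 849 and 195 CPM in CD8 T cells (3.13, SE 0.52). Gzmb, granzyme B, had 1303, 787 and 1605 CPM against 0, 519 and 23.8 CPM (3.74, SE 1.14, edgeR adjusted p = 0.0429), and most of its CD8 T cell level came from mutant B. Of 6 cytokine and chemokine genes tested 4 rose and 1 fell. Ccl5 had a log2 fold change of 3.74 (SE 0.24) and Xcl1 of 5.22 (SE 0.62). The gene that fell was Ltb, lymphotoxin beta (-2.42, SE 0.36), and the chemokine gene Ccl3 was not called (0.95, edgeR adjusted p = 0.437). Of 16 cytokine receptor and JAK-STAT genes 8 rose and 3 fell. Il2rb rose (2.84, SE 0.27), as did the interleukin-18 receptor chain Il18r1 (2.63, SE 0.48) and the interleukin-12 receptor chain Il12rb2 (3.38). Il7r had the lowest fitted log2 fold change (-6.55, SE 0.54), with 0, 0 and 23.1 CPM in NK cells against 876, 481 and 805 CPM in CD8 T cells. The ratio of the summed CD8 T cell level to that of NK cells was 71.2 (exact 95% counting interval 24.3 to 346, 3 UMIs in NK cells). By that ratio Fam241a stood at 80.6 (14.4 to 3190, 1 UMI in NK cells).

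Of 17 transcription factors tested 6 rose and 4 fell. Irf8, an interferon regulatory factor known for myeloid and NK cells (ENSMUSG00000041515, chromosome 8, 120736358 to 120756694), had 2842, 2143 and 1990 CPM in NK cells of mutant A, mutant B and WT B, against 11.2, 16.4 and 15.8 CPM in CD8 T cells. Its log2 fold change was 6.80 (SE 0.34, edgeR adjusted p = 1.86e-05), and its NK level over all libraries was 2564 CPM without the mixed barcodes and 2233 CPM with them. Tbx21 (T-bet), which drives NK maturation, rose by 3.33 (SE 0.53), and Zeb2, which acts with it, by 3.11 (SE 0.53). The homeobox gene Hhex, which is known to promote NK survival, had 189 ± 32.1 CPM in NK cells and 1.51 ± 2.61 CPM in CD8 T cells (SD, n = 3 libraries). Tcf7, Lef1, Bcl11b and Bach2 fell, and Foxo1 was not called (0.21, edgeR adjusted p = 0.663). Irf8, Tbx21 and Hhex passed the filter on low counts through NK cells alone, and Tcf7, Bcl11b and Bach2 through CD8 T cells alone. Tcf7, a factor of naive and memory T cells, had 29.0 ± 11.5 CPM in NK cells and 211 ± 49.7 CPM in CD8 T cells (log2 fold change -3.20, SE 0.37), Lef1 138 ± 18.3 and 568 ± 144 CPM (-2.26, SE 0.29), and Bcl11b, the T lineage commitment factor, 4.39 ± 7.60 and 136 ± 19.1 CPM (-5.55, SE 0.76). The Bcl11b call ended without WT B (adjusted p = 0.0583).

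Of 9 tested genes of the mature NK list 7 rose and 0 fell, with Itgam at 240 ± 22.7 CPM in NK cells and 5.28 ± 5.16 CPM in CD8 T cells (5.88, SE 0.50). Of 11 tested genes of the immature list 2 rose, Cd7 and Xcl1, and 6 fell, among them Il7r, Tcf7, Lef1 and Emb. Itgam passed the filter on low counts through NK cells alone, and Il7r and Tcf7 through CD8 T cells alone, so their part in these counts adds nothing. These genes are shared with naive T cells, so their names describe NK stages and not the T cells. Of 16 migration genes 6 rose and 3 fell. The inflammatory chemokine receptor Ccr2 had 215 ± 53.0 CPM in NK cells and 17.7 ± 14.2 CPM in CD8 T cells (3.41, SE 0.49), and integrin beta 1, Itgb1, rose by 3.30 (SE 0.31). The lymph node homing receptor Ccr7 had 63.6 ± 45.2 and 410 ± 84.0 CPM (-2.87, SE 0.44) and S1pr1 fell by 1.52 (SE 0.28) on the log2 scale. The other genes that fell furthest were Fam241a, Rflnb, Klk8, Gm12840, Dusp10, Trac, Inpp4b and Rgs10, and those that rose furthest included Cma1 (554 CPM in the summed NK cells and 2.19 CPM in CD8 T cells) and Spry2, an inhibitor of receptor tyrosine kinase signalling, with 283 ± 32.3 CPM in NK cells and 1.94 ± 2.44 CPM in CD8 T cells. Among the genes named for the largest folds, the calls of Inpp4b and Rgs10 also ended without WT B (edgeR adjusted p = 0.0807 and 0.0585). Only 56 of all calls held there, and the other genes described were not followed singly.

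**Figure D4:**
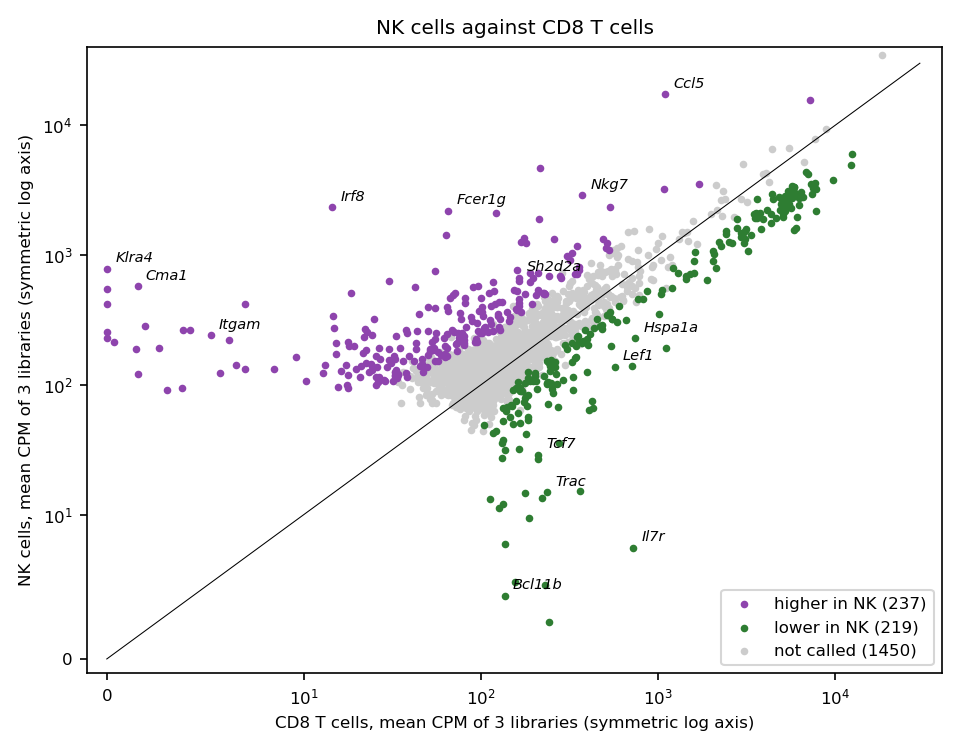
Mean CPM of 3 libraries (mutant A, mutant B and WT B) in NK cells against CD8 T cells for 1906 genes, on symmetric log axes that are linear under 10 CPM; the line marks equal levels. Purple genes were called higher in NK cells (237), green genes lower (219), and the dense green band at high levels holds the ribosomal protein genes.

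Ribosomal protein genes, a list chosen after the values were seen, took 15.8%, 19.7% and 15.4% of the UMIs of NK cells in mutant A, mutant B and WT B, against 35.7%, 34.1% and 37.9% of those of CD8 T cells. Of 80 tested, 77 were called lower and 0 higher, with a median log2 fold change of -1.32 and a range of -2.21 to -0.61. They were 77 of the 219 genes called lower. When these genes were left out of the library sizes and of the test, 217 genes were called higher and 146 lower. Of 11 heat shock genes, which encode chaperones and also respond to dissociation, 10 fell and 0 rose. Hsp90aa1 had 717 ± 151 CPM in NK cells and 1522 ± 269 CPM in CD8 T cells (-1.37, SE 0.25), and Hspa1b 141 ± 60.8 and 715 ± 453 CPM (-2.57, SE 0.30). The part that depth per cell or handling played in these differences was not tested.

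Between genotypes, no gene of NK cells was called. Over all 4 libraries edgeR tested 1842 genes and called 0 (0%). Without adjustment 25 had a p under 0.05, and every adjusted p came to 1.00. DESeq2 also called 0, with 0 at an unadjusted p under 0.05. Genes of each direction with the smallest unadjusted p are given as values that were not called. Nr4a1, an immediate early gene of receptor signalling, had 237 and 301 CPM in mutants and 0 and 92.6 CPM in WT (edgeR log2 fold change 1.72, SE 0.59). Atf3, a stress-induced factor, had 118 and 260 CPM in mutants and 0 and 54.0 CPM in WT (1.99, SE 0.71). Without the mixed barcodes Nr4a1 had 142 and 120 CPM in mutants and 0 and 75.3 CPM in WT, and Atf3 94.4 and 21.8 CPM in mutants and 0 and 18.8 CPM in WT. In the same direction stood Selenon (2.14), Pogk (2.20) and Tmem134 (2.02), each with 0 UMIs in WT A. In the other direction, Serpinb9b had 78.9 and 167 CPM in mutants and 342 (2 UMIs) and 339 CPM in WT (-1.28, SE 0.54). Slc7a11 (-2.08), Eif1b (-2.14) and Prpf4b (-1.19) stood lower as well. Each had an adjusted p of 1.00.

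Of all 1842 genes 1069 had a positive and 773 a negative log2 fold change, so the genes tested leaned to positive values as a whole. Of 12 cytotoxic granule genes 7 had a positive and 5 a negative log2 fold change, with a median of 0.066, against 0.090 over all 1842 genes. The Ly49 list had 2 of 5 positive (median -0.19), and the mature list 4 of 9 (median -0.051). Of 27 immediate early and dissociation genes 19 were positive (median 0.30), and of 9 heat shock genes 4 (median -0.024). Of 12 hypoxia and glycolysis genes 5 were positive (median -0.076), and of 3 interferon-stimulated genes 2 (median 1.21). None of these members was called. Fcer1g had 1960 and 2210 CPM in mutants and 2223 and 2422 CPM in WT. Gzmb had 1303 and 787 CPM in mutants and 0 and 1605 CPM in WT. Klra8 had 539 and 419 CPM in mutants and 342 and 671 CPM in WT. The WT libraries enclosed the mutant libraries for both Gzmb and Klra8.

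**Figure D5:**
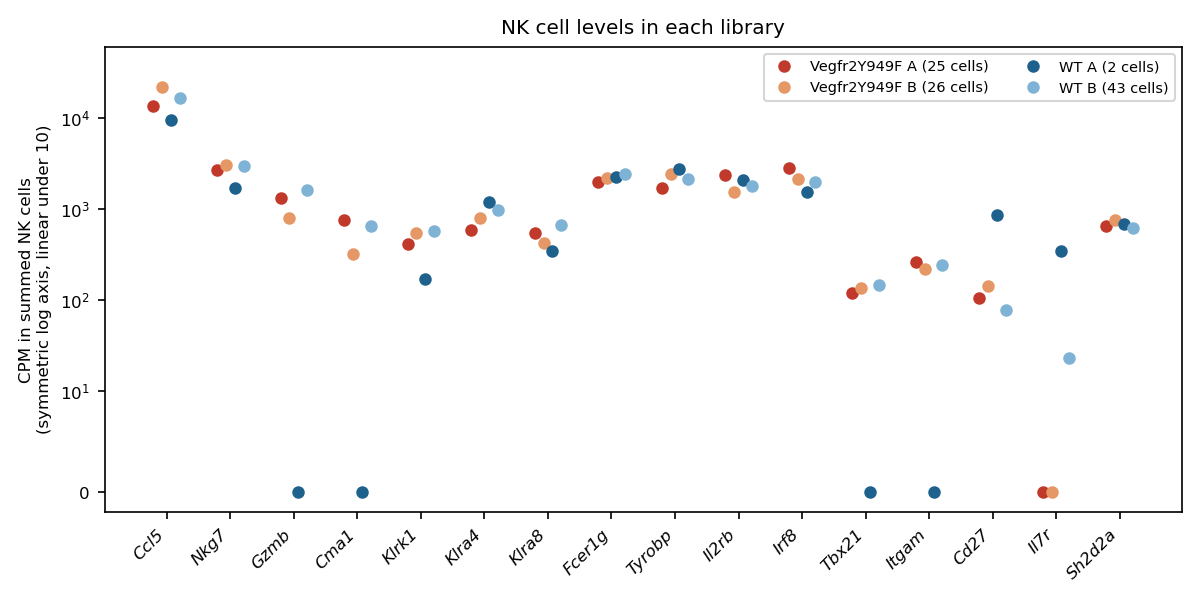
CPM of 16 genes in the summed NK cells of each library, on a symmetric log axis that is linear under 10 CPM. Mutant A, mutant B and WT B lie close together for most genes; WT A, with 2 cells, lies apart for Gzmb, Cma1, Tbx21, Itgam, Cd27 and Il7r, where 1 UMI is worth 171 CPM.

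Without WT A, 3 genes were called higher in mutants (0.109% of 2762) and 8 lower (0.290%), and most UMIs of several of these genes lay in single barcodes. The genes called lower were the MHC class II genes H2-Aa, H2-Ab1 and H2-Eb1, the class II chaperone Cd74, the haem-degrading enzyme Hmox1, the endotoxin coreceptor Cd14, the cystine transporter Slc7a11 and Marcksl1, and those called higher were Gsn, Ifi27l2a and Ptms. H2-Aa had 0 and 3 UMIs in NK cells of mutants and 0 and 128 in WT, and 121 of the 128 lay in 1 barcode of WT B. For H2-Ab1 the highest barcode held 142 of 152 UMIs over all libraries, for H2-Eb1 120 of 130, for Gsn 62 of 83 and for Slc7a11 33 of 55. When the 7 mixed barcodes were left out as well, 0 of 2263 genes were called, with 55 at an unadjusted p under 0.05. Ptms and Ifi27l2a kept their direction there, with log2 fold changes of 2.35 (SE 0.67) and 3.71 (SE 1.42), against 2.72 and 2.82 with these barcodes. The loss of their calls therefore does not show that the mixed barcodes carried them. With these barcodes Ifi27l2a had 0 CPM in mutant A, 393 CPM in mutant B and 30.9 CPM in WT B, so its direction rested on mutant B. With all 4 libraries and without the mixed barcodes edgeR also called 0, of 1481 genes (28 at an unadjusted p under 0.05). Without mutant A the only call was Ifitm1, lower in mutants (0.0389% of 2572), and without the low-count filter H2-Aa, H2-Ab1, H2-Eb1 and Hmox1 were called lower (0.0363% of 11008).

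Levels in NK cells and ILC2, another innate lymphocyte, are given side by side with no test. ILC2 were 79 barcodes with Il7r and at least 2 of 5 ILC2 genes, Gata3 among them. Gata3, the lineage factor of ILC2, had 57.4 CPM in NK cells over all libraries and 773 CPM in ILC2, where it was part of the rule. Rora had 145 CPM in NK cells and 2140 CPM in ILC2. Tbx21 had 133 CPM in NK cells and 0 UMIs in ILC2, and Fcer1g had 2236 CPM in NK cells and 183 CPM in ILC2.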

How the data were processed

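The deposited matrices hold whole-number UMI counts per gene and barcode, not normalized, written by Cell Ranger 6.1.1 per the file headers. The submitters' processing notes name the build mm10 and the tools fastp, UMI-tools and Seurat 4.1.0, with no role for each. Cell types were rebuilt from marker UMIs, so they can differ from the study's. Since cells are not replicates, the counts of each cell type were added up within a library and tested with edgeR 4.0.16 (R 4.3.3, quasi-likelihood test, TMM factors, filterByExpr, Benjamini-Hochberg adjustment). DESeq2 1.42.0 was an alternative. CPM are sums scaled to 1000000. No doublets were removed in the main results; Scrublet (scanpy 1.11.5) scored them and the highest 8% per library were left out as an alternative. The scripts were tested on simulated data. The members and gene lists were chosen with earlier results of these data known. Genes were named as the 10 called genes per direction with the largest fold against CD8 T cells (at least 50 CPM in the higher type, same direction in each library), the 20 with the largest ratio to other barcodes, and, where none was called, the 5 smallest p per direction; members of a list were named where it is described. 1 gene that this rule names is not reported here. The interaction of genotype and cell type was to be tested for genes called between genotypes, and none was called. Coordinates come from GENCODE M21, which holds 31107 of the 31253 gene identifiers; promoters come from RefSeq. Replicates were pools of mice, and depth per library is given beside the results.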

Additional observations from a re-analysis of the deposited data

Results flagged for a closer look

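The share of NK cells among kept barcodes moved in opposite directions in the 2 sets. In set A the mutant library was higher than the WT library by 0.184 percentage points (25 cells against 2), a ratio of 11.8. In set B the mutant library stood at -0.150 percentage points relative to the WT library (26 cells against 43), a ratio of 0.631. Each set holds 1 library of each genotype, so the difference between the sets was not tested. The low NK share of WT A came with low shares of T and B cells in the same library.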

How the results depend on the processing

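The NK share difference (0.0169 points) kept its sign (exact permutation p = 1 each) among Ptprc barcodes, among barcodes without endothelial UMIs, without high doublet scores and without the mixed barcodes (an alternative chosen after seeing the data). It turned to -0.0081 with at least 3 markers, and leaving out a library gave -0.178 to 0.212. The set letter as a replicate block left it at 0.0169 (exact permutation p = 1). Between genotypes 0 genes were called with RLE, DESeq2, at least 3 markers, without high doublet scores and with the replicate block (55 at an unadjusted p under 0.05); 4 were called without the low-count filter, all lower (H2-Aa, H2-Ab1, H2-Eb1 and Hmox1, 0.0363% of 11008 genes), and 0 to 11 without a library, the 1 without mutant A being Ifitm1 (lower); a genotype left with 1 library was assumed to vary like the other. Leaving out every cell with a UMI of 13 other-lineage genes left 8 cells, 57 genes and 0 calls, which says nothing about stability. The uncalled value of Gzmb (0.0073) was -0.099 without high doublet scores, -0.056 without mixed barcodes and -0.56 without these and WT A, and -0.61 to 9.13 without a library. Cd27 was 0.34 without mixed barcodes and WT A and -2.09 to 0.74 without a library, Klra8 -0.47 to 1.12, and Ccl5 -0.24 without cells with other-lineage UMIs. Against CD8 T cells, no gene called changed sign under the alternatives. Without a library, counts ran from 37 higher and 19 lower of 1747 tested to 450 and 278 of 5686. They were 343 and 420 of 13841 without the filter, 172 and 176 of 1906 with DESeq2, and 273 and 281 of 1517 without the mixed barcodes. With 2 cells in WT A, changes between genotypes below its floor were not detectable at this depth.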
